A study of Danio rerio with 4 samples.

Results

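A set of 83 transcripts, of 24573 in the deposited table, was nearly or wholly missing from zebrafish embryos at the sphere stage (4 hpf) and abundant at the bud stage (10 hpf). Members were chosen by their TPM, an abundance scaled within each sample for transcript length and sequencing depth. The rule asked for at least 50 TPM in both bud samples and for less than 0.5 TPM in both sphere samples. The samples were whole wild-type embryos of the TLAB strain, unperturbed and grown in E3 medium, 2 pools of 50 embryos at bud and 2 pools of 50 embryos at sphere. Total RNA was sequenced after depletion of ribosomal RNA. The rule used the TPM of all 4 samples, so the difference between the stages is a description of these transcripts and is given without a test.

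In zebrafish, the first cell cycles run on mRNAs laid down by the mother, and the genome of the embryo is switched on during the blastula period. Sphere is a blastula stage at which this activation is under way, while bud marks the end of gastrulation, when the germ layers, the body axis and the neural plate have formed. Transcripts that appear between these stages include those of genes for patterning, for signalling between cells and for the first differentiated tissues. In pools of whole embryos, more cells of a type and more RNA per cell cannot be told apart, and neither can new transcription and slower decay. TPM are shares of a fixed total, so a value also moves with all the other transcripts of its sample.

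The member transcripts lay between 53.7 and 1429 TPM in bud replicate 1, with a median of 119 TPM, and between 50.9 and 1032 TPM in bud replicate 2, with a median of 103 TPM. In sphere replicate 1 the highest of them had 0.488 TPM and the median was 0.0872 TPM, and in sphere replicate 2 the highest had 0.479 TPM and the median was 0.0775 TPM. Over all transcripts of the table the medians were 5.76 and 5.73 TPM in the bud samples, against 4.22 and 3.85 TPM in the sphere samples. The members therefore stood far above the typical transcript at bud and far below it at sphere, as the rule required. Together they held 1.73% and 1.53% of all TPM in the bud samples, against 0.00108% and 0.000981% in the sphere samples. The mean share at sphere, 0.00103%, was 0.00457% when members were chosen without sphere replicate 1 and 0.00186% when they were chosen without sphere replicate 2. The change of the member transcripts on the log2(TPM + 1) scale, which understates changes of low values, ran from 5.48 to 10.07 with a median of 6.61, and the median over all transcripts was 0.

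**Figure D1:**
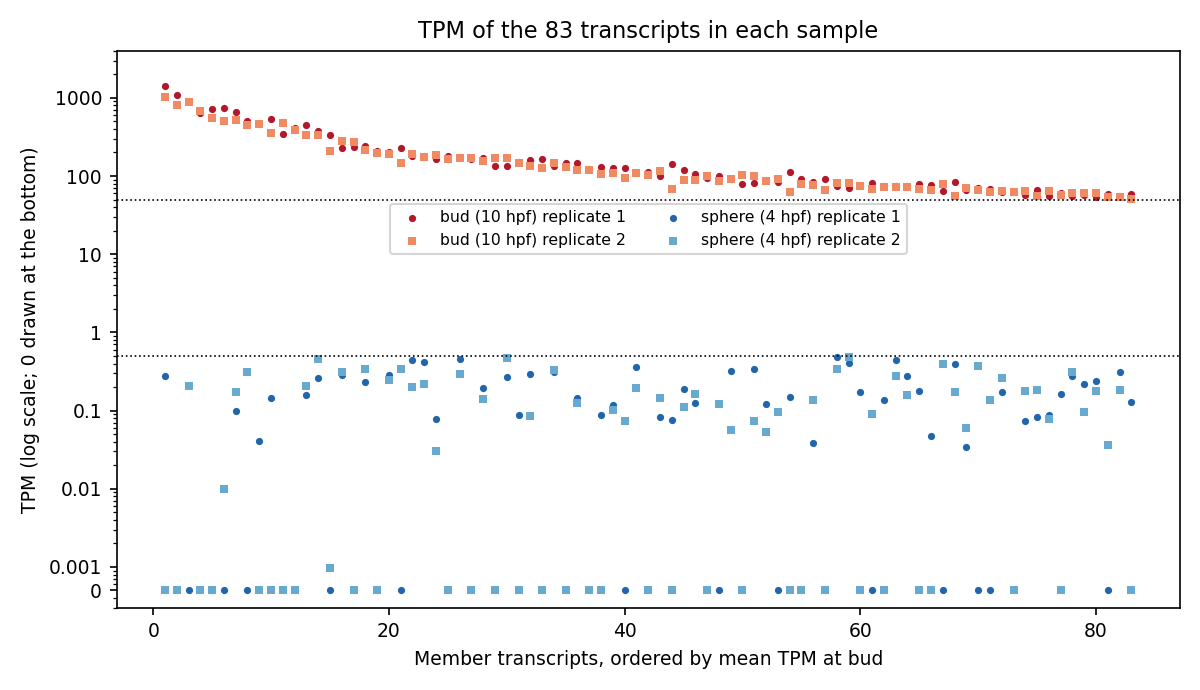
TPM of each of the 83 member transcripts in the 4 samples, ordered by the mean of the bud samples, on a log axis with values of 0 drawn at the bottom and the limits of 50 and 0.5 TPM as dotted lines. The bud samples follow one another from 1429 and 1032 TPM down to the limit, and the sphere samples scatter between 0 and 0.488 TPM without following that order.

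At sphere, 19 members were listed at 0 in both samples, 26 at 0 in exactly 1 sample and 38 above 0 in both. A listed 0 need not mean that no molecule was present, since TPM keep no count of reads, and 1082 transcripts of the table were listed at 0 in all 4 samples. The members listed at 0 in both sphere samples had bud means between 62.2 and 943 TPM, with a median of 153 TPM. The other 64 had bud means between 54.5 and 1230 TPM, with a median of 94.8 TPM. The ranges overlapped almost wholly.

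Both limits cut through a continuum. Among transcripts under 0.5 TPM in both sphere samples, the member closest to the bud limit had 50.9 TPM in its lower bud sample and the closest one left out had 49.7 TPM. In that lower bud sample, 11 members had 50 to 60 TPM and 27 transcripts left out had 40 to 50 TPM. Among transcripts of at least 50 TPM at bud, the member closest to the sphere limit had 0.488 TPM in its higher sphere sample and the closest one left out had 0.518 TPM. Without sphere replicate 1, the same limits were met by 123 transcripts, and without the other samples in turn by 94 to 96.

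Most members are given here only by their Ensembl transcript identifier, because the deposited table gives no gene names and no annotation that pairs these identifiers with genes was used here. Of the 83 members, 8 were paired with a gene and its symbol, and these stand for the first rows of the table rather than for the whole set. Some symbols are written in the capitals used for human genes, so they do not say which zebrafish copy of a gene was measured, and the Ensembl gene identifier is given for that reason. The 8 genes fell into regulators of development, metabolic enzymes and carriers, and 1 gene of no assigned role.

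Regulators of development were represented by a Notch ligand, a Hox gene and an RNA-binding protein, all in the lower part of the member range at bud. DLL1 (ENSDARG00000010791), a Delta-type ligand that activates Notch receptors on neighbouring cells, had 66.7 and 69.9 TPM in the bud samples, against 0.0340 and 0.0594 TPM in the sphere samples. HOXC6 (ENSDARG00000101954), a homeobox transcription factor of the Hox family, which assigns position along the body axis, had 69.6 and 65.3 TPM at bud, against 0 and 0.376 TPM at sphere. RBM47 (ENSDARG00000061985), an RNA-binding protein that in human cells assists the APOBEC1 editing enzyme, had 57.3 and 63.8 TPM at bud, against 0.0735 and 0.177 TPM at sphere. For these genes the bud samples lay close together, at means of 68.3 ± 2.22 TPM for DLL1, 67.5 ± 3.04 TPM for HOXC6 and 60.5 ± 4.61 TPM for RBM47 (SD, n = 2 each).

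HOXC6 was set apart from the other Hox genes that could be paired. Of 4 such genes, which occupy adjacent rows of the table, it was the only member. HOXC13 had 1.298 and 1.12 TPM at bud, against 0.371 and 0.200 TPM at sphere. HOXC12 had 3.10 and 3.74 TPM at bud, against 1.83 and 1.22 TPM at sphere. For hoxc11b the values were 2.62 and 2.59 TPM at bud, against 1.12 and 1.09 TPM at sphere. In Hox clusters, genes of low number are as a rule active earlier and further forward than those of high number. The paired gene with the lowest number was the one that passed 50 TPM at bud, but the others did not follow the order of their numbers. HOXC12 lay above hoxc11b in every sample. Position along the body was not measured. These Hox genes were picked after their values were seen and were not tested.

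The carriers and enzymes spanned a wider range. FABP2 (ENSDARG00000006427), a fatty acid-binding protein known from the intestine, was the most abundant named member, with 531 and 352 TPM in the bud samples, against 0.146 and 0 TPM in the sphere samples. Its bud samples differed by 0.59 on the log2 scale, the widest gap of the 8 named members. SLC25A1 (ENSDARG00000076381), the carrier that exports citrate from mitochondria, had 107 and 87.7 TPM at bud, against 0.126 and 0.165 TPM at sphere. For ptgdsa (ENSDARG00000069439), a lipocalin-type prostaglandin D synthase by name, the values were 75.1 and 74.6 TPM at bud, against 0.171 and 0 TPM at sphere. For uox (ENSDARG00000007024), urate oxidase, which breaks down uric acid from purines, they were 75.4 and 73.2 TPM at bud, against 0.135 and 0 TPM at sphere. Of these genes, ptgdsa and uox differed between the bud samples by 0.01 and 0.04 log2 units.

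The 8th gene, si:ch211-217k17.9 (ENSDARG00000093494), carries only a clone-based name. It had 346 and 473 TPM in the bud samples and was listed at 0 in both sphere samples. Its neighbour in the preceding row, ENSDART00000144025, was a member as well, with 647 and 678 TPM at bud and 0 in both sphere samples, and was not paired with a gene. Other genes of the same clone-based series, si:ch211-217k17.10 and si:ch211-217k17.11, stood within 4 rows. The first had 0.507 and 0.894 TPM at bud, against 0 and 0 TPM at sphere, and the second had 1.24 and 3.89 TPM at bud, against 0.372 and 0.524 TPM at sphere. For these genes, sharing a clone name and a neighbourhood with si:ch211-217k17.9 thus did not go with a like abundance, while the adjacent ENSDART00000144025 was high at bud as well.

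The neighbours of the other named members showed mixed levels. On either side of FABP2, the guanylate cyclase subunit gene GUCY1B1 had 1.55 and 1.37 TPM at bud, against 2.07 and 1.05 TPM at sphere, and USP53 had 2.67 and 2.18 TPM at bud, against 0.420 and 0.975 TPM at sphere. NRARP, an inhibitor of Notch signalling that is itself a Notch target, lies within 4 rows of ptgdsa, with 246 and 263 TPM at bud, against 33.7 and 25.5 TPM at sphere. It was present at both stages and is therefore no member. Of the 7 named members other than si:ch211-217k17.9, none had another member within 4 rows.

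The most abundant members carried a large part of the total. The 10 members of highest bud mean held 44.5% and 40.8% of the TPM of all members in the bud samples. The highest was ENSDART00000004812, with 1429 and 1032 TPM at bud, against 0.279 and 0 TPM at sphere, and it ranked 107th among all transcripts by bud mean. Next came ENSDART00000133213, with 1085 and 802 TPM at bud and 0 in both sphere samples. No member was among the 100 most abundant transcripts at bud, 14 were among the 500 most abundant, and 30 among the 1000 most abundant. In both bud samples, 41 members had at least 100 TPM, 18 at least 200 TPM and 7 at least 500 TPM. FABP2 and si:ch211-217k17.9 were the named genes in the upper range, while each of the 6 others had at most 107 TPM in a bud sample.

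Some members stood next to one another in the table. For 1180 named transcripts that were also found in the RefSeq annotation, 97.5% of neighbouring pairs lay on 1 chromosome, and 97.4% of those pairs followed the order of their start positions. The rows that could be checked thus ran along the chromosomes, and the order of the other rows was not tested. Of the 83 members, 22 (26.5%) had a member in an adjacent row, in 9 runs of 2 to 5 members. Of the 3173 other transcripts of at least 50 TPM in both bud samples, 7 (0.221%) did. These shares are not on a like scale, since 83 members have few adjacent rows in which so many others could stand. The share over all transcripts was not computed. A neighbour of at least 50 TPM at bud, member or not, was about as frequent for members (32.5%) as for the other abundant transcripts (30.2%), and was found for 24.3% of all transcripts. A neighbour under 0.5 TPM in both sphere samples was found for 67.5% of members, for 32.9% of the others and for 42.5% of all transcripts. The share of members includes the 22 with an adjacent member, since every member meets that limit by the rule. No test was run on these shares.

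The densest group had 8 members in 10 rows, and was singled out after its values were seen. By identifier and in table order, ENSDART00000109033 had 207 and 196 TPM at bud, ENSDART00000133962 had 124 and 118 TPM, and ENSDART00000047916 had 332 and 211 TPM. Further along, ENSDART00000113862 had 143 and 69.2 TPM, ENSDART00000152656 had 508 and 455 TPM, and ENSDART00000106072 had 182 and 166 TPM. The last of the group were ENSDART00000109968, with 460 and 459 TPM, and ENSDART00000152635, with 409 and 388 TPM. In the sphere samples these 8 transcripts summed to 0.117 and 0.309 TPM, against 2364 and 2062 TPM in the bud samples, where they held 13.7% and 13.5% of the TPM of all members. The rows between them were low at sphere and higher at bud as well, with 17.6 and 21.5 TPM and with 17.2 and 15.2 TPM in the bud samples and 0 in every sphere sample. The row just after the group was of another kind, with 58.2 and 56.7 TPM at bud, against 91.9 and 96.9 TPM at sphere.

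another group held the most abundant member. ENSDART00000105036 had 907 and 876 TPM at bud, against 0 and 0.206 TPM at sphere, and was followed by ENSDART00000004812 and by ENSDART00000105004, which had 665 and 522 TPM at bud, against 0.0980 and 0.171 TPM at sphere. These 3 transcripts held 17.4% and 15.9% of the TPM of all members in the bud samples. The row before them, ENSDART00000105040, reached 695 and 850 TPM at bud and missed the rule only through the sphere samples, with 3.94 and 0.505 TPM. The row after them had 43.5 and 30.5 TPM at bud, against 0.0923 and 0.0897 TPM at sphere, and missed the rule at bud. In the runs of 2 members, the higher bud mean was 1.04 to 1.67 times the lower one. No member of either group was paired with a gene. The paper describes a reference with 1 principal transcript per gene, and a figure legend counts 24573 reference transcripts, the number deposited. Its methods give a smaller number after filtering. By that description adjacent members belong to separate genes. The pairing kept only matches of 1 transcript with 1 gene, so it could not check this. Whether adjacent members without a gene are near-identical copies, among which the authors' estimation could split reads, was not tested, so their separate levels are uncertain.

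**Figure D2:**
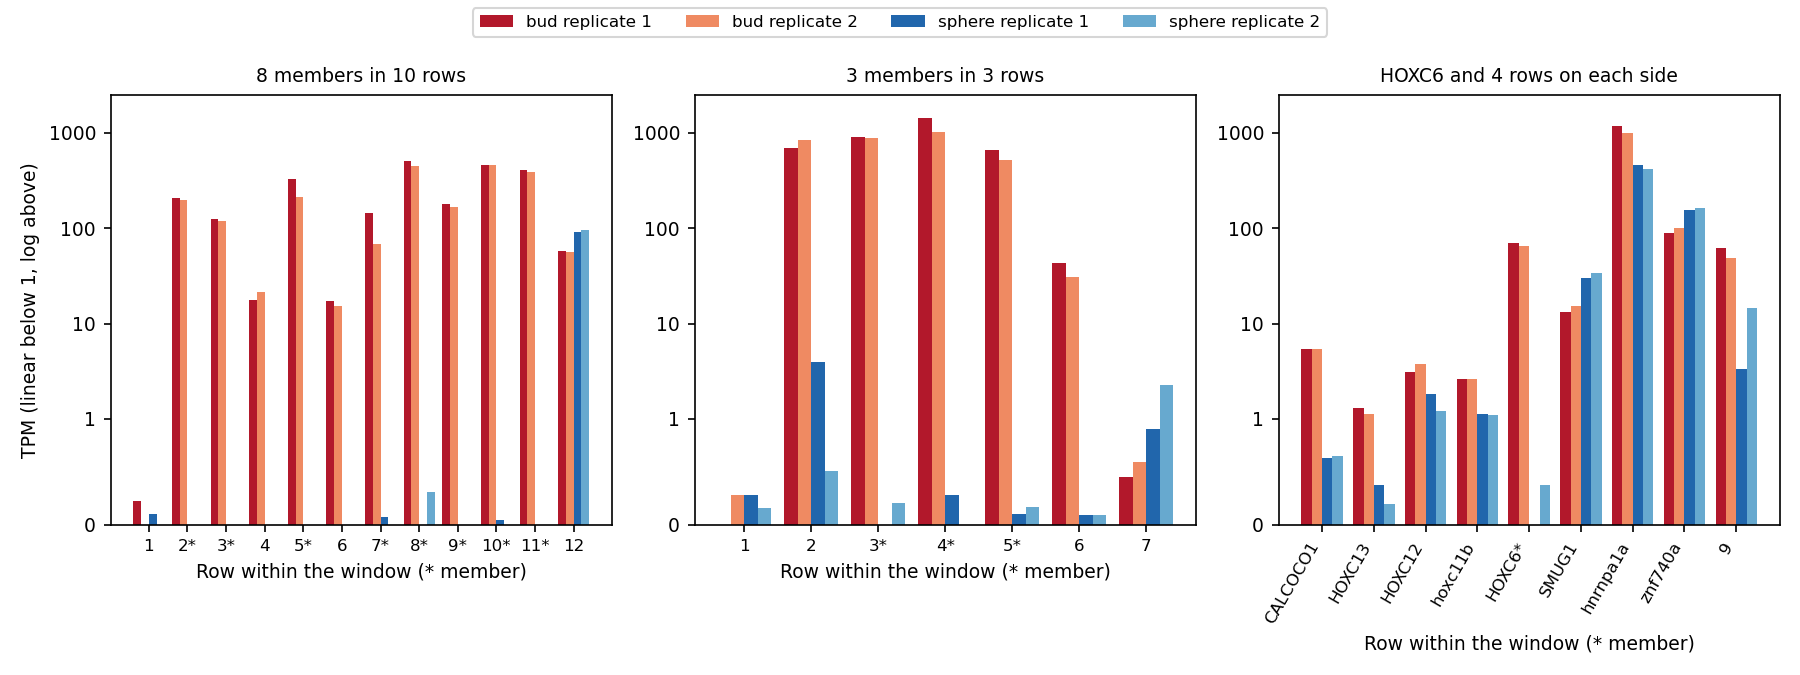
TPM in the bud and sphere samples for consecutive rows of the table around the group of 8 members, the group of 3 members and HOXC6, with members marked by an asterisk and the axis linear below 1 and logarithmic above. In both groups the bars of the sphere samples are at or near 0 for members, while HOXC6 at 69.6 and 65.3 TPM stands beside Hox genes under 4 TPM at bud.

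A level under 0.5 TPM at the earlier stage was uncommon among transcripts abundant at bud. Of 3256 transcripts with at least 50 TPM in both bud samples, 2263 (69.5%) had 50 TPM or more in at least 1 sphere sample, and 627 had between 10 and 50 TPM in the higher sphere sample. Another 96 had 5 to 10 TPM, 146 had 1 to 5 TPM and 41 had 0.5 to 1 TPM. The members made up the remaining 2.55%, whereas 25.8% of all transcripts of the table were under 0.5 TPM in both sphere samples. In the opposite direction, 4565 transcripts had at least 50 TPM in both sphere samples, and 20 of them (0.438%) were under 0.5 TPM in both bud samples. That share was 0.745% without bud replicate 2, and the share of bud-abundant transcripts missing at sphere was 3.78% without sphere replicate 1. With each of the 4 samples left out, the share missing at sphere was larger than the share missing at bud.

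**Figure D3:**
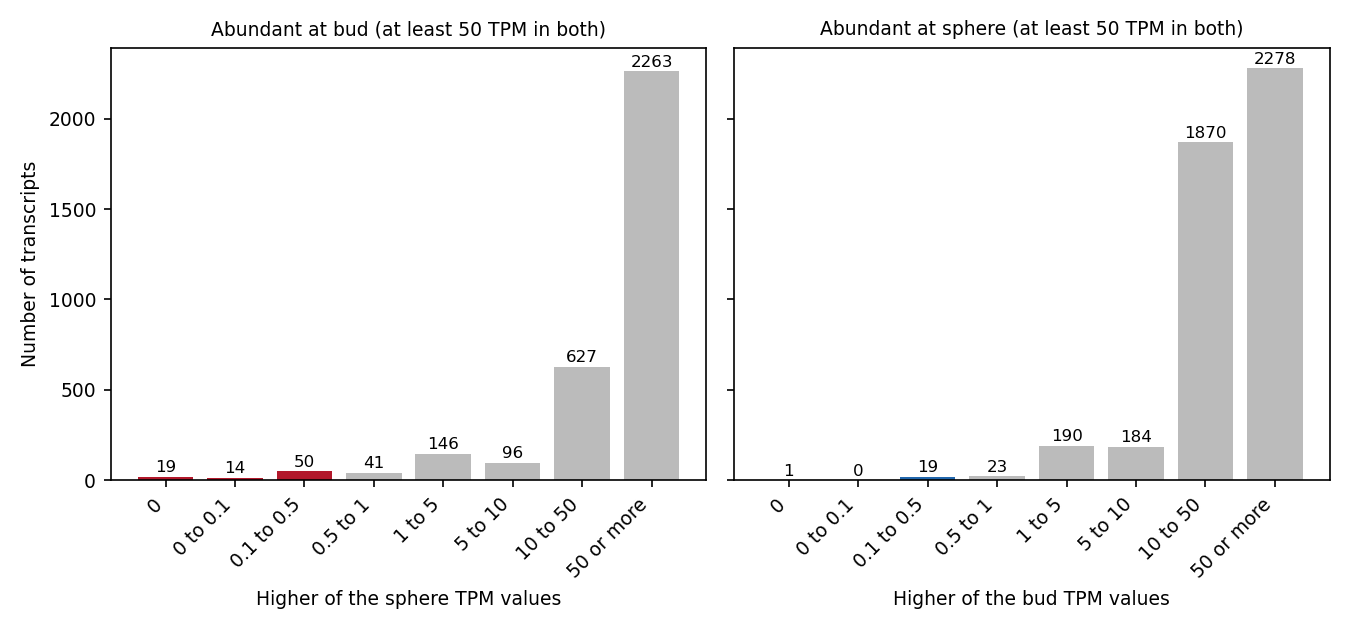
Number of transcripts by their level at the other stage, for the 3256 transcripts abundant at bud (left, by the higher sphere TPM) and the 4565 abundant at sphere (right, by the higher bud TPM). The coloured bars are the transcripts under 0.5 TPM at the other stage, 19, 14 and 50 at left and 1, 0 and 19 at right.

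Few of the transcripts missing at sphere became abundant. Of 6352 transcripts under 0.5 TPM in both sphere samples, 3542 (55.8%) were also under 0.5 TPM in both bud samples. At least 1 TPM in both bud samples was reached by 1355 (21.3%), at least 10 TPM by 328 (5.16%) and at least 25 TPM by 165 (2.60%). The 83 members were 1.31% of the transcripts missing at sphere and held 59.3% and 57.8% of the TPM of all of them in the bud samples. The rule picked them by their high bud TPM, so a share well above their number was built in. Of the summed gain in mean TPM over the 12222 transcripts that had a higher mean at bud, the members held 3.87%. All transcripts missing at sphere together held 2.91% and 2.64% of all TPM in the bud samples. Most of the gain in TPM at bud thus fell on transcripts that had at least 0.5 TPM in a sphere sample.

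The bud samples differed more for the members than for the other transcripts of at least 50 TPM at bud, whose range of levels was wider. The median absolute difference between bud replicates 1 and 2 was 0.18 log2 units for members (quartiles 0.08 and 0.30) and 0.10 for the other 3173 transcripts of at least 50 TPM (quartiles 0.05 and 0.18). Of the 83 members, 55 (66.3%) were higher in bud replicate 1, against 42.3% of the other transcripts. Neither trait was particular to the members, since both were broadly more marked at lower levels at sphere, though not steadily. Of the 19 members listed at 0 in both sphere samples, 57.9% were higher in bud replicate 1. It was 71.4% of members above 0 and under 0.1 TPM in the higher sphere sample, and 68% from 0.1 to 0.5 TPM. The median absolute differences of these members were 0.18, 0.20 and 0.16 log2 units in turn. Among the 41 transcripts of at least 50 TPM at bud with 0.5 to 1 TPM in the higher sphere sample, 56.1% were higher in bud replicate 1 and the median absolute difference was 0.13 log2 units. Among the 146 with 1 to 5 TPM, 52.1% were higher in bud replicate 1, with a median absolute difference of 0.15, and among the 2263 with 50 TPM or more, 41.2% were, with 0.10. Among the 19 members with a bud mean of at least 200 TPM, 15 were higher in bud replicate 1, with a median of 0.16 log2 units. Among the 64 others it was 40, with a median of 0.05. The median signed difference was 0.08 log2 units over the members and -0.03 over the other abundant transcripts. These differences compare 2 samples and carry no test. The methods state that replicate samples of the RNA batch were collected on different days but give no day for each sample, so the part of the collection day was not tested.

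Single members differed widely in this respect. ENSDART00000113862, with 143 TPM in bud replicate 1 and 69.2 TPM in bud replicate 2, had the largest difference, of 1.04 log2 units. It was followed by ENSDART00000115383 at 112 and 61.7 TPM and ENSDART00000166853 at 230 and 146 TPM, both also higher in replicate 1. The smallest differences were those of ENSDART00000109968 at 460 and 459 TPM, of ptgdsa and of ENSDART00000040769 at 109 and 109 TPM. For 76 of the 83 members the bud samples differed by less than 0.5 log2 units.

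**Figure D4:**
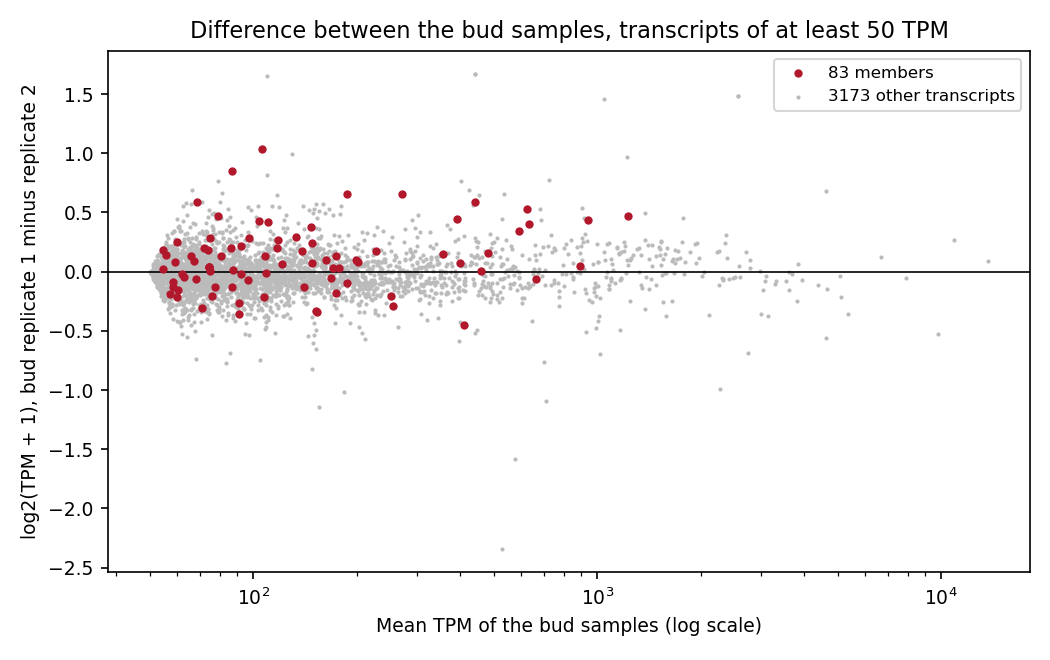
Difference between bud replicates 1 and 2 in log2(TPM + 1) against the mean TPM of the bud samples on a log axis, for the 83 members and the 3173 other transcripts of at least 50 TPM in both bud samples. Members lie above the zero line more often than below it (55 of 83), the highest at 1.04.

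All 83 members were among the transcripts that limma, a moderated linear model fitted across all transcripts on log2(TPM + 1), called higher at bud at an adjusted p under 0.05. Of the 20332 transcripts tested, 37.2% were called higher and 38.2% lower at bud. The rule had used the same contrast, so nothing is read from the members' count.

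Genes with known roles in the early embryo were examined with the same model, to place the set among other developmental genes. Of 318 genes on 14 lists of tissue markers, signalling genes, maternal genes and early zygotic genes, 12 could be paired with a transcript. None of the 12 was a member, but members were only 83 of 24573 transcripts, so nothing is read from this. The 75 members without a gene could include other genes of the lists. At bud, 8 of the 12 were higher and 4 were lower (limma, Benjamini-Hochberg), and the median log2 difference was 2.03, against 0.02 over all transcripts tested. Among the 8, WNT11 and krt94 entered the model only because their bud means exceeded 0.5 TPM. A call of lower at bud was thus hardly possible for them, and nothing is read from their calls.

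The 8 that rose at bud came from 6 lists. HAND2, a transcription factor of heart and limb mesoderm, had 36.5 and 31.4 TPM at bud, against 1.33 and 0.619 TPM at sphere (log2 difference 4.17, SE 0.25, adjusted p = 6.5e-05 from limma). For msx1b, a homeobox gene of the neural plate border, the values were 91.1 and 98.9 TPM at bud, against 7.39 and 4.18 TPM at sphere. SPRY2, an inhibitor of FGF signalling, had 99.5 and 106 TPM at bud, against 11.0 and 9.40 TPM at sphere. WNT11, a Wnt ligand, had 19.2 and 7.41 TPM at bud, against 0.260 and 0.284 TPM at sphere. Its sphere values were above the upper quartiles of the members there, 0.236 and 0.189 TPM. The keratin gene krt94 was lower at sphere and also low at bud, with 1.06 and 1.05 TPM at bud, against 0.0756 and 0 TPM at sphere. WNT11 and krt94 thus met the limit at sphere and missed that at bud.

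The other 3 of these were otx2a, a homeobox gene of the forebrain and midbrain, bmp7a, a BMP ligand of the ventral side, and ved, a ventral homeobox gene switched on in the blastula. At bud, otx2a had 46.6 and 66.2 TPM, against 9.73 and 3.98 TPM at sphere. For bmp7a the values were 57.2 and 68.6 TPM at bud, against 37.1 and 21.8 TPM at sphere, and for ved they were 212 and 237 TPM at bud, against 43.9 and 11.4 TPM at sphere. When either bud sample was left out, these 3 genes no longer passed, and over all alternatives their adjusted p from limma reached 0.0650 for otx2a, 0.170 for bmp7a and 0.109 for ved.

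The 4 genes that fell were DDX4, NANOS3 and tdrd7a, genes of the germ plasm, the material the mother supplies to future germ cells, and aplnrb, a receptor for apelin-type ligands. DDX4 fell to 16.3 and 19.1 TPM at bud, against 270 and 265 TPM at sphere (log2 difference -3.85, SE 0.12, adjusted p = 1.89e-05 from limma). NANOS3 fell to 12.9 and 15.7 TPM at bud, against 132 and 184 TPM at sphere. For tdrd7a the values were 3.99 and 7.17 TPM at bud, against 96.5 and 139 TPM at sphere. The values of aplnrb were 38.3 and 43.1 TPM at bud, against 87.1 and 69.7 TPM at sphere, and its call was lost without bud replicate 1 and with quantile normalization, where adjusted p reached 0.0873.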

How the data were processed

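RNA-seq libraries from whole zebrafish embryos at bud (10 hpf) and sphere (4 hpf), 2 replicates per stage, were analysed. The authors deposited TPM for 24573 transcripts, 1 value per transcript and sample. Their methods describe trimming with Trim Galore (0.6.4), the GRCz11 genome and 2 programs for TPM, Kallisto for coding genes and RSEM for a merged table of principal transcripts used to weigh codons. The deposited table has the form of the RSEM table, and the sources do not name its program outright. The submitters' processing notes also name STAR, featureCounts and DESeq2. TPM add up to 1000000 in every sample and carry no depth, so counting error could not be computed (the methods give reads per library only as a range, not used here), and 0 columns were left out.

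Transcripts were paired with genes where a gene's mean TPM in a table of the study equalled that of exactly 1 transcript at both stages (relative tolerance 1e-05). Of 1998 genes read, 1643 were above 0.5 TPM at a stage, and each had 1 transcript. Symbols came from a table of Ensembl gene names (1580 of 1643). The order of rows was compared with the chromosomes and start positions of RefSeq genes (GRCz12tu), matched by symbol. Coordinates served only for that comparison, and sequences were not used here.

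Stages were compared with limma 3.58.1 under R 4.3.3, the prior variance following the mean level (eBayes trend). Values entered as log2(TPM + 1), transcripts were kept if either stage mean exceeded 0.5 TPM, and p-values were adjusted by Benjamini-Hochberg. The procedure was tested on simulated data. TPM do not allow a count model, and none was fitted. P-values rest on the spread between 2 pools per stage, drawn by the model towards that of other transcripts of like level. The collection day of each pool is not given in the sources used here. Other values were computed in Python 3.11.15. Named were the members with a symbol, members on the gene lists, the members with the 3 largest and 3 smallest differences between bud samples, and, for unpaired transcripts, the 2 of highest bud mean. Other identifiers were picked with their values in view. The members, lists and rules were chosen with earlier results of these data known. Alternatives covered the limits of the rule, pseudocount, filter, scaling, trend, replicate block and each sample left out.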

Additional observations from a re-analysis of the deposited data

How the results depend on the processing

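The number of members followed the limits of the rule. It was 33 with under 0.1 TPM and 19 with 0 TPM at sphere, and 165 with at least 25 TPM and 41 with at least 100 TPM at bud, against 83. With under 1 TPM at sphere it was 124, with limits on stage means 106, with median-of-ratios scaling 85, and with each sample left out 94 to 123. Looser limits, limits on stage means and leaving out a sample keep the 83 members by construction, and stricter limits can only remove some. Under median-of-ratios scaling, all 83 still met the rule, but this could not have come out otherwise. Values were divided by factors of 1.04 and 1.03 at sphere and of 0.975 and 0.987 at bud. Sphere values were thereby lowered and bud values raised, so no member could be lost. The mean member share of TPM at bud (1.63%) was 2.19% without the 100 most abundant transcripts, 2.31% with under 1 TPM at sphere, 1.31% with at least 100 TPM at bud, and 1.68% to 2.44% with a sample left out. The mean share at sphere (0.00103%) was 0.00126%, 0.00337%, 0.000493%, and 0.00116% to 0.00457% under the same alternatives. The share of bud-abundant transcripts missing at sphere was 2.76% to 3.78%, and that of sphere-abundant ones missing at bud 0.419% to 0.745%, with a sample left out.

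The limma counts of 7559 transcripts higher and 7772 lower stayed within 1.5 times under all alternatives run. With a sample left out, the lone remaining sample is assumed to vary like the other stage. Of the paired list genes, 5 to 8 were then higher and 3 to 4 lower. The replicate numbers were not shown to pair samples (correlation of deviations 0.09 over 20332 transcripts), and the replicate block gave 7600 higher and 7824 lower. Scaling by median of ratios moved the median difference by 0.07 log2 units. No single gene reversed its direction in 191 checks, but the checks of members could not reverse, since the rule fixed their direction. In 13 checks, all of members, the log2 difference moved by at least its spread between replicates. Most of these used a pseudocount of 0.1, which moved every member checked and by far more than the other alternatives. With it, RBM47 went from 5.77 to 8.11 and ENSDART00000133213 from 9.87 to 13.19. The size of the members' log2 differences thus depends on the pseudocount. TPM carry no depth, so whether low values at sphere reflect few reads could not be measured.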
